A study of Cucumis sativus with 9 samples.

Results

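The leaves of cucumber (Cucumis sativus) seedlings kept at 42 °C for 6 h were compared with leaves taken at 0 h, over every gene of the expression tables. Of the 9 RNA-seq libraries of the series, 6 entered the comparison, 3 of heated leaves (HT6h_1 to HT6h_3) and 3 of unheated leaves (HT0h_1 to HT0h_3), and the 3 libraries of leaves heated for 3 h (HT3h) served as a further point of reference. All plants were 3-week-old seedlings of the inbred line 'Chinese long' 9930. The libraries of a group are described as biological replicates. HT6h leaves had been at 42 °C for 6 h, and HT0h leaves are the untreated control. No leaves that stayed unheated for 6 h were analysed here, and the effect of heat and that of the sampling hour cannot be told apart in any value below. The tables hold 24880 genes, all of which were compared, and 19468 of them reached a mean of 0.1 FPKM over the 9 libraries and were tested. FPKM is a level per length, the number of fragments relative to the gene's length and the library's depth. Positions are as the tables give them, on the assembly of the CsaV3 identifiers. The genes carry no symbols, so each is given by its CsaV3 identifier and by the protein domain (Pfam entry) that the tables list for it.

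Plant cells answer high temperature with heat shock factors, transcription factors that switch on genes for chaperones. Chaperones such as Hsp20, Hsp70, Hsp90 and their DnaJ partners bind unfolded proteins, hold them soluble or help them to refold. Long heating also touches photosynthesis, growth, membrane lipids, hormone and calcium signalling, which are the other gene groups followed here.

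HT6h_2 stood apart from its group before any gene was tested. Over all genes, Pearson's r of log2(FPKM + 1) was 0.968 between HT6h_2 and HT6h_1 and 0.954 between HT6h_2 and HT6h_3, against 0.982 between HT6h_1 and HT6h_3 and 0.9887 to 0.9902 between HT0h libraries. This library and HT3h_2 were left out of the published analysis for poor uniformity. The values below come from all 9 libraries. Calls without these libraries are given for part of the lists and genes, and counts of some others changed too. Fragments on genes numbered 18996991 to 22598046 in HT6h libraries and 19040644 to 19596994 in HT0h libraries.

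At 6 h, 2388 of the 19468 genes tested were higher than at 0 h (12.3%) and 1973 were lower (10.1%), together 22.4%. A gene was called at an adjusted p of 0.05 or less (limma on log2(FPKM + 0.1)) and a log2 fold change of at least 1 in size. Without HT6h_2 and HT3h_2, in the other 7 libraries, 2377 genes were called higher (12.2%) and 1951 lower (10%) of 19416 tested. Of the 4361 calls over 9 libraries, 3712 were also made in the same direction over the 7. Scaled per counted fragment instead, 3010 genes were higher and 1425 lower, so that the share of higher genes among the calls was 67.9% rather than 54.8%. That scaling moved the median log2 fold change of all genes to 0.16, from 0.01 on the deposited scale.

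Many of the changes were large. The median size of the log2 fold change was 1.75 among genes called higher, of which 403 reached 3 and 73 reached 5. Among genes called lower the median was 1.6, with 290 genes at 3 or more and 28 at 5 or more. Genes called higher made up 16.3, 18.1 and 16.3% of the summed FPKM in HT6h leaves, against 3.64, 3.62 and 3.35% in HT0h leaves. Genes called lower made up 9.899, 7.64 and 10.1% in HT6h leaves, against 26.9, 25.7 and 26.8% in HT0h leaves. These shares follow from how the genes were called and describe only how much of the measured RNA they hold. Among abundant genes falls were more frequent than rises. Of the 1011 genes with a mean above 100 FPKM, 106 were higher and 242 lower, with a median log2 fold change of -0.54.

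**Figure D1:**
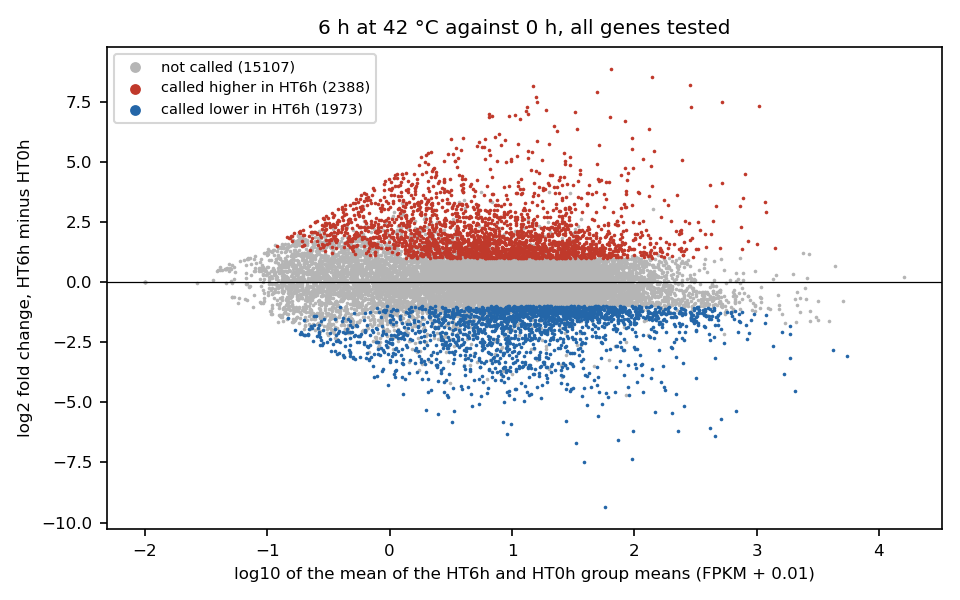
Log2 fold change of each gene tested (HT6h minus HT0h, vertical axis) against the log10 of its mean FPKM + 0.01 over the 2 groups (horizontal axis), 1 point per gene. Red points are the 2388 genes called higher and blue points the 1973 called lower, and the blue points are more frequent than the red ones at the right, among the most abundant genes.

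The 8 largest rises were those of genes of low level at 0 h. The largest was that of CsaV3_6G042280, the WRKY transcription factor gene CsWRKY50 (chromosome 6, 24809801 to 24812529), with 36.6, 297 and 51.5 FPKM in HT6h leaves, against 0.0344, 0.0686 and 0.141 FPKM in HT0h leaves (log2 fold change 8.87 ± 0.9 (SE), adjusted p = 0.000246). HT6h_2 was far above the other heated libraries. The lowest heated library lay above every unheated one, as the rule for naming required. This gene overlaps a gene on the other strand, and whether strand was used in counting is not given in the sources used here.

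CsaV3_4G001170 (chromosome 4, 673741 to 675862), of the universal stress protein family, had 142, 632 and 67.9 FPKM in HT6h leaves, against 0.619, 0.54 and 0.159 FPKM in HT0h leaves (log2 fold change 8.54 ± 0.85 (SE), adjusted p = 0.000233). CsaV3_1G035970 (chromosome 1, 22004184 to 22007596), for which the tables list no domain, had 534, 681 and 483 FPKM in HT6h leaves, against 2.37, 1.65 and 1.52 FPKM in HT0h leaves (log2 fold change 8.19 ± 0.21 (SE), adjusted p = 4e-07). Of these 8 genes it had the smallest standard error. CsaV3_6G006970 (chromosome 6, 5707738 to 5721500) encodes an agglutinin domain, a carbohydrate-binding fold, and had 136, 32.1 and 130 FPKM in HT6h leaves, against 0.616, 0.123 and 0.158 FPKM in HT0h leaves (log2 fold change 7.91 ± 0.83 (SE), adjusted p = 0.000291).

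CsaV3_7G002270 (chromosome 7, 1788691 to 1799558), a protein kinase with a PAS domain, had 12.2, 58.9 and 22.6 FPKM in HT6h leaves, against 0.0337, 0.0168 and 0.0173 FPKM in HT0h leaves (log2 fold change 7.7 ± 0.5 (SE), adjusted p = 3.09e-05). CsaV3_1G036580 (chromosome 1, 22464221 to 22466379), with the CCT motif found in regulators of light and flowering time responses, had 23.2, 29.8 and 41.99 FPKM in HT6h leaves, against 0.104, 0.138 and 0 FPKM in HT0h leaves (log2 fold change 7.51 ± 0.4 (SE), adjusted p = 1.28e-05). The EF-hand gene CsaV3_2G003630 (chromosome 2, 1814358 to 1816925), whose domain binds calcium, had 1665, 593 and 869.6 FPKM in HT6h leaves, against 7.02, 7.04 and 2.87 FPKM in HT0h leaves (log2 fold change 7.48 ± 0.69 (SE), adjusted p = 0.000162). In all 3 genes every heated library lay above every unheated one, as the rule for naming required, and the heated libraries differed among themselves. CsaV3_UNG167280, a chromo domain gene on an unplaced scaffold, had no fragment in any HT0h library, and its 35.2, 34.2 and 19.2 FPKM in HT6h leaves correspond to an at least 422-fold higher level against a floor of 3 fragments over the 3 HT0h libraries.

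The largest fall was that of CsaV3_4G009980 (chromosome 4, 7751656 to 7755202), which carries a CCT motif and a B-box zinc finger, the domains of CONSTANS-like regulators. It had 0, 0.0846 and 0.178 FPKM in HT6h leaves, against 107, 143 and 95.5 FPKM in HT0h leaves (log2 fold change -9.36 ± 0.48 (SE), adjusted p = 1.1e-05). The gene was thus close to undetected after 6 h. CsaV3_4G023810 (chromosome 4, 13850327 to 13854659), a lipoxygenase, an enzyme that oxidises polyunsaturated fatty acids, had 0.06, 0.0867 and 1.298 FPKM in HT6h leaves, against 142, 65.2 and 24.9 FPKM in HT0h leaves (log2 fold change -7.47 ± 1.47 (SE), adjusted p = 0.0049). CsaV3_6G008360 (chromosome 6, 6710104 to 6724832), with a Myb-like DNA-binding domain, had 0.67, 1.65 and 1.06 FPKM in HT6h leaves, against 176, 208 and 184 FPKM in HT0h leaves (log2 fold change -7.35 ± 0.35 (SE), adjusted p = 7.57e-06). It overlaps a gene on the same strand, so its count could include fragments of that gene.

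Hydrophobic seed protein, histone, rhomboid and lipid transfer genes made up the rest of the 8 largest falls. The hydrophobic seed protein gene CsaV3_3G002920 (chromosome 3, 2383341 to 2384096) had 0.595, 2.06 and 2.17 FPKM in HT6h leaves, against 188, 140.3 and 110 FPKM in HT0h leaves (log2 fold change -6.57 ± 0.65 (SE), adjusted p = 0.000233). Another gene with this domain, CsaV3_3G002870 (chromosome 3, 2343747 to 2344962), had 0.214, 0 and 4.49 FPKM in HT6h leaves, against 87.4, 87.3 and 20.7 FPKM in HT0h leaves (log2 fold change -6.69 ± 2.3 (SE), adjusted p = 0.0495), with HT0h_3 and HT6h_3 the closest of the libraries. That call was lost in 11 of 18 alternatives, among them the 7 libraries and leaving out any of HT6h_1, HT6h_2 and the 3 HT0h libraries. CsaV3_7G031310 (chromosome 7, 19795466 to 19795876), a core histone gene, had 14.1, 2.32 and 34.3 FPKM in HT6h leaves, against 946, 837 and 909 FPKM in HT0h leaves (log2 fold change -6.41 ± 0.9 (SE), adjusted p = 0.00107). CsaV3_4G008810 (chromosome 4, 6320500 to 6323161), of the rhomboid family of intramembrane proteases, had 0.145, 0.351 and 0 FPKM in HT6h leaves, against 16.8, 19.5 and 17.4 FPKM in HT0h leaves (log2 fold change -6.33 ± 0.57 (SE), adjusted p = 0.000147). The probable lipid transfer protein gene CsaV3_7G018790 (chromosome 7, 8772826 to 8773340) had 6.602, 3.11 and 8.26 FPKM in HT6h leaves, against 524, 577 and 242 FPKM in HT0h leaves (log2 fold change -6.21 ± 0.65 (SE), adjusted p = 0.000292). In each of the 8 genes every heated library lay below every unheated library, as the rule for naming required.

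**Figure D2:**
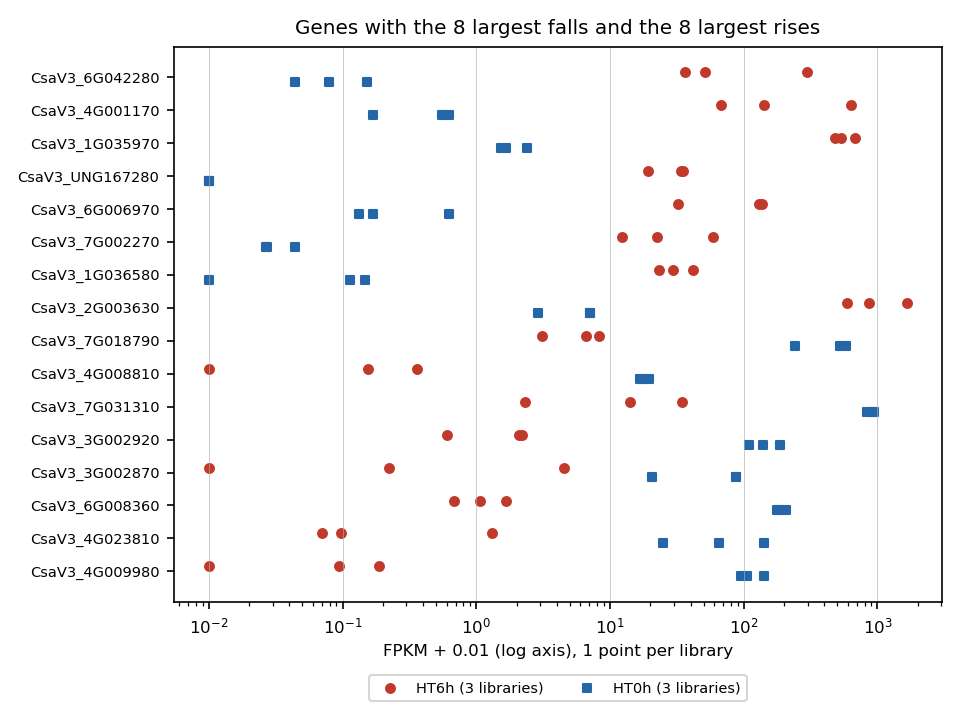
FPKM + 0.01 (horizontal log axis) of the genes with the 8 steepest rises and the 8 steepest falls, taken from genes with a mean of at least 1 FPKM, 1 point per library, red circles for HT6h and blue squares for HT0h. The 2 groups of 3 libraries do not overlap in any of the 16 genes, as the rule for naming required. The heated libraries of CsaV3_3G002870 are the most spread.

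Several genes rose to a high level. CsaV3_1G022930 (chromosome 1, 13292418 to 13298387), with no domain listed, had 1847, 3303 and 1136 FPKM in HT6h leaves, against 12.1, 12.6 and 10.5 FPKM in HT0h leaves (log2 fold change 7.34 ± 0.4 (SE), adjusted p = 1.43e-05). CsaV3_1G003820 (chromosome 1, 2372211 to 2374433), also without a listed domain, had 2327, 2326 and 1730 FPKM in HT6h leaves, against 230.4, 262 and 152 FPKM in HT0h leaves (log2 fold change 3.33 ± 0.42 (SE), adjusted p = 0.000629). CsaV3_1G040980 (chromosome 1, 26095495 to 26097461), with the cupin fold of seed storage and germin-like proteins, had 2637, 2307 and 1431 FPKM in HT6h leaves, against 247, 237 and 336 FPKM in HT0h leaves (log2 fold change 2.93 ± 0.43 (SE), adjusted p = 0.00141). CsaV3_2G003620 (chromosome 2, 1811185 to 1813040), whose identifier precedes that of the EF-hand gene CsaV3_2G003630 and which has no listed domain, had 2347, 896 and 1408 FPKM in HT6h leaves, against 74.5, 109.5 and 32.5 FPKM in HT0h leaves (log2 fold change 4.48 ± 0.7 (SE), adjusted p = 0.00172). In all 4 genes every heated library was far above every unheated one. CsaV3_7G029960 (chromosome 7, 18958591 to 18959211) carries the domain of CP12, a regulator of the Calvin cycle, and had 2127, 1963 and 2104 FPKM in HT6h leaves, against 930.5, 746 and 664 FPKM in HT0h leaves (log2 fold change 1.42 ± 0.44 (SE), adjusted p = 0.0349). Its call was lost on leaving out any of the 6 libraries.

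Small heat shock proteins were higher after 6 h. Of 32 Hsp20 genes, 27 were tested, and 17 rose (63%, against 12.3% of all genes tested) and 0 fell, with a median log2 fold change of 2.32 against 0.01 over all genes. In the 7 libraries 15 were called. CsaV3_3G002780 had 30.3, 10.6 and 21.7 FPKM in HT6h leaves, against 0.263, 0 and 0 FPKM in HT0h leaves (log2 fold change 6.97 ± 0.55 (SE), adjusted p = 8.07e-05). It overlaps a gene on the other strand. CsaV3_5G008780 had 23.5, 25.1 and 20.7 FPKM in HT6h leaves, against 0.32, 0.128 and 0 FPKM in HT0h leaves (log2 fold change 6.77 ± 0.45 (SE), adjusted p = 3.36e-05), and CsaV3_7G008210 had 48.4, 53.2 and 55.2 FPKM in HT6h leaves, against 1.81, 0.991 and 1.85 FPKM in HT0h leaves (log2 fold change 5.03 ± 0.25 (SE), adjusted p = 1.07e-05). In all 3 the heated libraries were far above the unheated ones. How the counting treated fragments shared by near-identical copies is not given in the sources used here, so values of single members of this and other multigene families are uncertain.

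The rise of the Hsp20 genes was smaller at 6 h than at 3 h. Their summed level was 716, 797 and 696 FPKM in HT6h leaves, against 345, 333 and 384 FPKM in HT0h leaves, and 1651, 1478 and 1789 FPKM in HT3h leaves. In the test of HT6h against HT3h, 5 of the 27 were lower at 6 h, where 39 of all 19468 genes were lower (0.2%) and 34 higher (0.175%). Without HT6h_2 and HT3h_2, 2 of the 27 were lower, against 0.113% of all genes lower and 0.0876% higher. CsaV3_5G030610 and CsaV3_1G035830 were among the 5, chosen here after their values were seen. CsaV3_5G030610 averaged 47.8 FPKM in HT6h and 47.2 FPKM in HT0h (log2 fold change 0.02), with 161.8 FPKM in HT3h. For CsaV3_1G035830 the means were 71.4 FPKM in HT6h and 38.2 FPKM in HT0h, which did not reach the fold threshold, with 201.1 FPKM in HT3h.

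Of 10 Hsp70 genes, 5 rose (50%, against 12.3% of all genes) and 2 fell (20%, against 10.1%). CsaV3_2G009170 had 11.02, 12.5 and 11.5 FPKM in HT6h leaves, against 0.213, 0.292 and 0.219 FPKM in HT0h leaves (log2 fold change 5.11 ± 0.2 (SE), adjusted p = 3.17e-06), while CsaV3_2G011210 had 249.8, 120.5 and 159 FPKM in HT6h leaves, against 462, 375 and 569 FPKM in HT0h leaves (log2 fold change -1.45 ± 0.35 (SE), adjusted p = 0.0122). The fall of CsaV3_2G011210 was lost on leaving out HT0h_3. The gene that rose was rare at 0 h and the gene that fell was abundant. Of 6 Hsp90 genes, 2 rose (33.3%, against 12.3%) and 1 fell (16.7%, against 10.1%). CsaV3_3G017480, which overlaps a gene on the other strand, had 3.14, 1.08 and 3.12 FPKM in HT6h leaves, against 0.13, 0.0371 and 0.478 FPKM in HT0h leaves (log2 fold change 3.13 ± 0.61 (SE), adjusted p = 0.00466). CsaV3_1G038710 had 98.7, 48.4 and 95.9 FPKM in HT6h leaves, against 166, 192 and 188 FPKM in HT0h leaves (log2 fold change -1.24 ± 0.3 (SE), adjusted p = 0.0121), a call that was lost without HT6h_2 and in the 7 libraries.

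Of 71 DnaJ genes, the partners of Hsp70, 9 rose (12.7%, near the 12.3% of all genes) and 3 fell (4.23%, against 10.1%). CsaV3_5G027230, with a DnaJ domain and a ferredoxin-type iron-sulphur domain, had 46.7, 55.6 and 29 FPKM in HT6h leaves, against 0.195, 0.518 and 0.467 FPKM in HT0h leaves (log2 fold change 6.49 ± 0.54 (SE), adjusted p = 0.000103). It overlaps a gene on the other strand. CsaV3_2G006870 had 245, 272 and 277 FPKM in HT6h leaves, against 10.2, 8.04 and 9.28 FPKM in HT0h leaves (log2 fold change 4.84 ± 0.17 (SE), adjusted p = 2.33e-06), and CsaV3_5G028590 had 171, 178 and 149.7 FPKM in HT6h and 9.05, 7.56 and 9.71 FPKM in HT0h (log2 fold change 4.23). CsaV3_3G032730 fell, with 49.1, 21.7 and 63.01 FPKM in HT6h leaves, against 232, 198 and 140 FPKM in HT0h leaves (log2 fold change -2.19 ± 0.52 (SE), adjusted p = 0.011). Of 19 genes with the TCP-1/cpn60 domain of chaperonins, ring-shaped chambers for folding, 1 rose (5.26%, against 12.3%) and 5 fell (26.3%, against 10.1%). The gene that rose, CsaV3_1G044910 (log2 fold change 1.04), also carries a FYVE zinc finger and a phosphatidylinositol-4-phosphate 5-kinase domain. It may therefore not be a chaperonin. CsaV3_2G025080 had 39.95, 21.2 and 40.1 FPKM in HT6h leaves, against 104, 84.2 and 90.2 FPKM in HT0h leaves (log2 fold change -1.51 ± 0.34 (SE), adjusted p = 0.00914). The 5 falls became 2 in the 7 libraries and 1 on leaving out HT6h_2, HT0h_1, HT0h_2 or HT0h_3. Scaled per counted fragment 1 fell, and under quantile normalization 3. Of 8 Clp and AAA chaperone genes 0 rose and 1 fell (12.5%, near the 10.1% of all genes). That call, of CsaV3_3G016360 (log2 fold change -1), was lost on leaving out HT6h_1, HT6h_3, HT0h_1 or HT0h_3.

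Heat shock factors, the regulators of these genes, rose in 8 of 19 members tested (42.1%, against 12.3% of all genes) and fell in 1 (5.26%, against 10.1%). CsaV3_3G012910 had 26.2, 26.7 and 40.9 FPKM in HT6h leaves, against 2.69, 1.14 and 2.18 FPKM in HT0h leaves (log2 fold change 3.94 ± 0.39 (SE), adjusted p = 0.000221). The other members that rose were chosen for naming after their values were seen. CsaV3_5G003160 was the most abundant, with means of 111 FPKM in HT6h and 41.1 FPKM in HT0h (log2 fold change 1.42, adjusted p = 0.000891). CsaV3_2G025510 averaged 47.6 FPKM in HT6h and 6.67 FPKM in HT0h (log2 fold change 2.81), below its 171.6 FPKM in HT3h. CsaV3_7G027860 was the member that fell, with 18.9 FPKM in HT6h and 58.3 FPKM in HT0h (log2 fold change -1.55, adjusted p = 0.00311), and its HT3h mean was 98.1 FPKM.

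Proteasome genes were lower after 6 h. Of 18 proteasome subunit genes, parts of the chamber that degrades ubiquitin-tagged proteins, 12 fell (66.7%, against 10.1% of all genes) and 0 rose, with a median of -1.16. In the 7 libraries 11 fell. CsaV3_7G025230 had 14.5, 14.2 and 13.4 FPKM in HT6h leaves, against 59.4, 62.2 and 53.1 FPKM in HT0h leaves (log2 fold change -2.04 ± 0.16 (SE), adjusted p = 6.91e-05), and CsaV3_2G028900 had 26.6, 21.1 and 22.1 FPKM in HT6h leaves, against 78.3, 59.4 and 60.5 FPKM in HT0h leaves (log2 fold change -1.5 ± 0.17 (SE), adjusted p = 0.000427). CsaV3_4G032560 had 15.6, 16.1 and 14.9 FPKM in HT6h and 49.2, 36.8 and 39.9 FPKM in HT0h (log2 fold change -1.42). The 3 genes were at similar levels in all 3 heated libraries, HT6h_2 included. Summed over the subunits the level was 625, 563 and 634 FPKM in HT6h leaves, against 1458, 1187 and 1236 FPKM in HT0h leaves.

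Of 38 U-box genes, which encode ubiquitin ligases, 5 rose (13.2%, near the 12.3% of all genes) and 0 fell. On leaving out HT6h_1 or any HT0h library 2 to 3 were called higher, with a pseudocount of 1 or a minimum mean of 1 FPKM 1 was, and scaled per counted fragment 8 were. CsaV3_4G027070 had 10.9, 9.62 and 5.25 FPKM in HT6h and 3.22, 3.04 and 2.95 FPKM in HT0h (log2 fold change 1.39). Of 23 genes of the ubiquitin family 1 rose and 1 fell (4.35% each, against 12.3% and 10.1% of all genes). CsaV3_2G003580, which rose, had 89, 109 and 90.8 FPKM in HT6h leaves, against 45.9, 45.7 and 40.7 FPKM in HT0h leaves (log2 fold change 1.12 ± 0.18 (SE), adjusted p = 0.00221). The gene that fell, CsaV3_4G008470, encodes ubiquitin fused to ribosomal protein L40e and had 426, 246 and 459.7 FPKM in HT6h leaves, against 1573, 1025 and 1194 FPKM in HT0h leaves (log2 fold change -1.77 ± 0.45 (SE), adjusted p = 0.0146). It overlaps a gene on the other strand, and its call was lost without HT0h_1.

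Genes that mark leaf mesophyll were at high levels in all libraries. The gene for the small subunit of RuBisCO, the enzyme that fixes carbon dioxide, had 17980, 24370 and 10540 FPKM in HT6h leaves, against 12900, 15170 and 15390 FPKM in HT0h leaves. It did not pass the test, and its groups overlapped. Of 20 chlorophyll a/b binding genes, which encode the antenna proteins of the photosystems, 9 fell (45%, against 10.1%) and 0 rose, with a median of -1.71. The same count, 9, fell in the 7 libraries. Their summed level was 19490, 24190 and 10560 FPKM in HT6h leaves, against 57580, 64750 and 59110 FPKM in HT0h leaves, so it was lower in every heated library, and HT6h_3 was the lowest.

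Among the antenna genes, CsaV3_3G031580 (chromosome 3, 27304318 to 27305115) had 188, 446 and 53.5 FPKM in HT6h leaves, against 4081, 4601 and 3031 FPKM in HT0h leaves (log2 fold change -4.54 ± 0.79 (SE), adjusted p = 0.00282). CsaV3_7G002620 (chromosome 7, 2041428 to 2043365) had 337, 243 and 134 FPKM in HT6h leaves, against 3073, 3284 and 2995 FPKM in HT0h leaves (log2 fold change -3.81 ± 0.55 (SE), adjusted p = 0.00128). CsaV3_1G032510 (chromosome 1, 19549853 to 19551179) had 437, 839 and 133 FPKM in HT6h leaves, against 3105, 3386 and 3375 FPKM in HT0h leaves (log2 fold change -3.17 ± 0.69 (SE), adjusted p = 0.00759). The heated libraries of these genes differed among themselves by several-fold, and HT6h_3 was the lowest each time. CsaV3_6G013800 (chromosome 6, 9988814 to 9990198) had 1435, 936 and 849.5 FPKM in HT6h leaves, against 7574, 7740 and 6947 FPKM in HT0h leaves (log2 fold change -2.83 ± 0.7 (SE), adjusted p = 0.014). CsaV3_6G051530 (chromosome 6, 29986415 to 29987212), the most abundant of these genes at 0 h, had 1483, 1620 and 626 FPKM in HT6h leaves, against 9360, 9539 and 10230 FPKM in HT0h leaves (log2 fold change -3.08 ± 0.86 (SE), adjusted p = 0.0227), and its call was lost on leaving out HT6h_1, HT6h_3 or any HT0h library.

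Few photosystem subunit genes passed the test. Of 32 tested, 0 rose and 2 fell (6.25%, against 10.1%), and the median was -0.53. CsaV3_6G052210, for a psaG or psaK subunit of photosystem I, had 445, 516 and 272 FPKM in HT6h leaves, against 891, 1009 and 862 FPKM in HT0h leaves (log2 fold change -1.21 ± 0.42 (SE), adjusted p = 0.0491), and its call was lost in the 7 libraries and on leaving out HT6h_1, HT6h_3 or any HT0h library.

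Many ribosomal protein genes were lower. Of 271 tested, 96 fell (35.4%, against 10.1%) and 3 rose, with a median of -0.93. The count depended on single libraries: 46 fell without HT6h_2, 34 without HT0h_1, 60 without HT0h_2, 38 without HT0h_3 and 71 in the 7 libraries. Scaled per counted fragment, 53 fell. The summed level was 47910, 29040 and 51360 FPKM in HT6h leaves, against 92620, 68330 and 80010 FPKM in HT0h leaves, lowest in HT6h_2. CsaV3_5G006630, for a ribosomal L29 protein, had 144, 82.04 and 158 FPKM in HT6h leaves, against 646, 404 and 482 FPKM in HT0h leaves (log2 fold change -2.02 ± 0.42 (SE), adjusted p = 0.00623). CsaV3_7G016210, for a 60S acidic ribosomal protein, had 2.74, 3.74 and 2.79 FPKM in HT6h and 22.3, 10.9 and 13.6 FPKM in HT0h (log2 fold change -2.25), a call lost without HT0h_1. CsaV3_5G032760, a gene of the L18p/L5e family that overlaps one on the other strand, rose, with 2.94, 4.22 and 2.86 FPKM in HT6h leaves, against 0.89, 0.69 and 0.608 FPKM in HT0h leaves (log2 fold change 2.05 ± 0.27 (SE), adjusted p = 0.000876).

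Many genes with pentatricopeptide (PPR) repeats were higher. Their proteins bind RNA in chloroplasts and mitochondria and take part in its editing, splicing and stability. Of 342 tested, 122 rose (35.7%, against 12.3%) and 4 fell, with a median of 0.74. In the 7 libraries 129 rose and 4 fell. CsaV3_7G007090 had 28.02, 22.6 and 33.6 FPKM in HT6h leaves, against 2.08, 2.296 and 1.8 FPKM in HT0h leaves (log2 fold change 3.69 ± 0.22 (SE), adjusted p = 1.88e-05). It overlaps a gene on the same strand. CsaV3_6G050750 had 7.28, 7.92 and 5.96 FPKM in HT6h leaves, against 0.813, 0.811 and 1.03 FPKM in HT0h leaves (log2 fold change 2.86 ± 0.25 (SE), adjusted p = 0.000132), and CsaV3_6G051350 had 12.7, 13.1 and 11.9 FPKM in HT6h leaves, against 2.44, 1.48 and 1.43 FPKM in HT0h leaves (log2 fold change 2.79 ± 0.24 (SE), adjusted p = 0.00013). All 3 were steady across the heated libraries. CsaV3_1G025520 fell, with 19.2, 24.2 and 14.5 FPKM in HT6h leaves, against 89.3, 89.7 and 97.6 FPKM in HT0h leaves (log2 fold change -2.28 ± 0.23 (SE), adjusted p = 0.000261).

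The DYW deaminase domain marks editing factors of organelle transcripts. Within the PPR genes and beside them, 32 of 58 genes with this domain were called higher (55.2%, against 12.3% of all genes) and 0 lower. This family was picked for its share of calls. Of 167 RNA recognition motif genes 10 rose (5.99%, against 12.3%) and 7 fell (4.19%, against 10.1%), and 4 fell without HT6h_2, 11 without HT6h_3 and 2 when scaled per counted fragment. CsaV3_2G014690, an abundant member, had 1272, 1388 and 1030 FPKM in HT6h leaves, against 245, 216 and 287 FPKM in HT0h leaves (log2 fold change 2.3 ± 0.29 (SE), adjusted p = 0.000629). CsaV3_2G024240 had 27.1, 26.1 and 26.4 FPKM in HT6h leaves, against 75.4, 69.1 and 70.6 FPKM in HT0h leaves (log2 fold change -1.43 ± 0.16 (SE), adjusted p = 0.000384). Of 71 DEAD/DEAH helicase genes 4 rose (5.63%) and 5 fell (7.04%), both below the shares of all genes. CsaV3_5G021940, with a CarD-like domain, had 20.7, 21.02 and 18.4 FPKM in HT6h and 7.71, 5.27 and 8.06 FPKM in HT0h (log2 fold change 1.52), and CsaV3_5G030500 had 0.364, 0.24 and 1.44 FPKM in HT6h and 4.103, 4.29 and 4.96 FPKM in HT0h (log2 fold change -2.86), a call lost on leaving out HT6h_1, HT6h_2 or any HT0h library. Without HT6h_2, 2 helicase genes rose and 2 fell, without HT0h_1 also 2 and 2, without HT0h_3 2 rose and 3 fell, and without HT6h_1 3 fell.

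**Figure D3:**
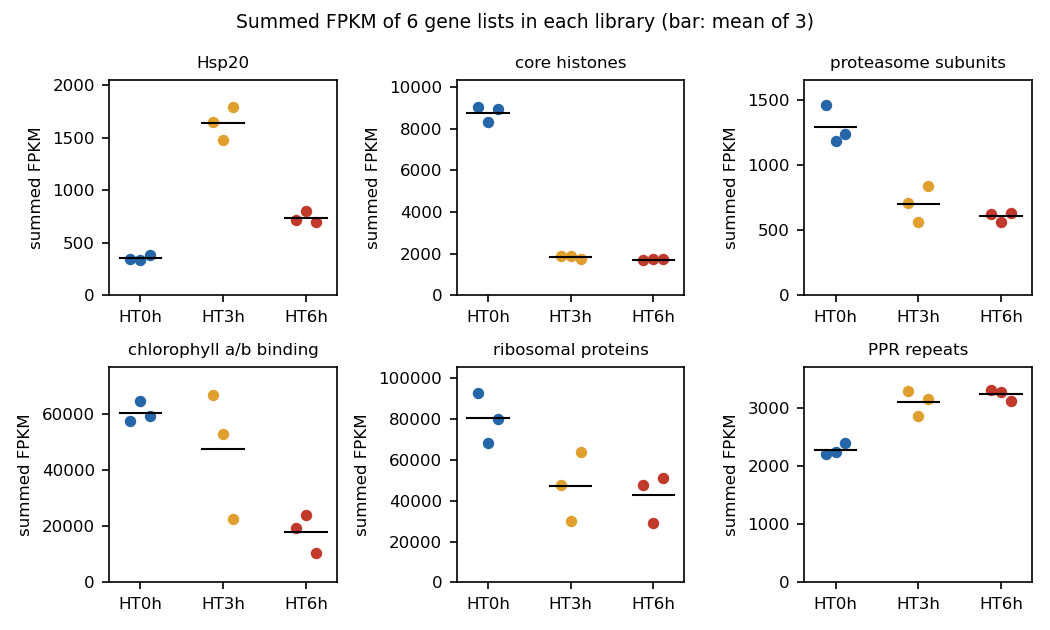
Summed FPKM (vertical axes, from 0) of 6 gene lists in each library at 0, 3 and 6 h at 42 °C (HT0h, HT3h and HT6h), 1 point per library with a bar at the mean of 3. Hsp20 is higher at 6 h than at 0 h and highest at 3 h. The sums of core histones, proteasome subunits and chlorophyll a/b binding genes at 6 h lie below those at 0 h in every library.

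Of the lists compared, core histones had the highest share of genes lower. Of 23 core histone genes tested, whose products wrap DNA and are made mainly in dividing cells, 17 fell (73.9%, against 10.1%) and 0 rose, with a median of -2.5. Without HT6h_2 and HT3h_2, 16 fell. The summed level was 1673, 1716 and 1716 FPKM in HT6h leaves, against 9033, 8337 and 8958 FPKM in HT0h leaves, so the groups were far apart and the heated libraries close together. CsaV3_7G028400, with a histone H2A domain, had 22.7, 9.88 and 32.5 FPKM in HT6h leaves, against 1027, 965 and 1011 FPKM in HT0h leaves (log2 fold change -5.68 ± 0.47 (SE), adjusted p = 9.6e-05). CsaV3_1G042610, which overlaps a gene on the same strand, had 12.9, 2.53 and 21.4 FPKM in HT6h leaves, against 411, 393 and 388 FPKM in HT0h leaves (log2 fold change -5.46 ± 0.68 (SE), adjusted p = 0.000616). HT6h_2 was the lowest heated library in both. In leaves taken as bulk tissue, fewer cells of a type and less RNA per cell cannot be told apart.

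A further list of dividing cells was mainly lower among its calls. Of 103 MCM, kinesin, tubulin and cyclin genes, 44 fell (42.7%, against 10.1%) and 7 rose, with a median of -0.75, and 43 fell and 7 rose in the 7 libraries. Kinesins, motors that move along microtubules, gave 26 falls (52%, against 10.1% of all genes) and 2 rises (4%, against 12.3%) among 50 genes. Tubulins, the subunits of microtubules, gave 3 rises and 3 falls among 16 (18.8% each, against 12.3% and 10.1% of all genes). CsaV3_1G006890, a kinesin, had 0.936, 1.73 and 0.791 FPKM in HT6h leaves, against 32.4, 31.8 and 35.9 FPKM in HT0h leaves (log2 fold change -4.81 ± 0.37 (SE), adjusted p = 6.89e-05). CsaV3_4G029350, with cyclin domains, had 3.93, 5.45 and 2.96 FPKM in HT6h leaves, against 84.9, 97.9 and 114 FPKM in HT0h leaves (log2 fold change -4.59 ± 0.63 (SE), adjusted p = 0.000954), and the kinesin CsaV3_3G004460 had 1.56, 1.92 and 1.48 FPKM in HT6h leaves, against 32.1, 31.97 and 37.1 FPKM in HT0h leaves (log2 fold change -4.27 ± 0.61 (SE), adjusted p = 0.00116). In these 3 genes the heated libraries were far below the unheated ones and close to each other. Of the histone list 3 of 27 genes had no fragment in any HT6h library and 4 of 27 none in any HT0h library. In the list of MCM, kinesin, tubulin and cyclin genes none of the 104 was at 0 in all libraries of either group.

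Genes with phloem protein 2 or agglutinin domains, lectin-like proteins known from cucurbit phloem, were called higher more often than lower. Of 48 genes, 37 were tested, and 12 rose (32.4%, against 12.3%) and 2 fell, with a median of 1, and in the 7 libraries 16 rose and 2 fell. Beside the leading CsaV3_6G006970, CsaV3_6G006860, with an aerolysin toxin domain as well, had 8.71, 6.08 and 2.96 FPKM in HT6h leaves, against 0, 0.0906 and 0.0311 FPKM in HT0h leaves (log2 fold change 5.34 ± 0.63 (SE), adjusted p = 0.000503). CsaV3_6G008840 fell, with 3.33, 0.561 and 10.8 FPKM in HT6h leaves, against 24.6, 24.4 and 29.3 FPKM in HT0h leaves (log2 fold change -3.17 ± 0.95 (SE), adjusted p = 0.0295), a call lost on leaving out HT6h_1, HT6h_2 or any HT0h library. The summed level was 834, 557 and 679.6 FPKM in HT6h leaves, against 273, 310.2 and 259 FPKM in HT0h leaves, and 6 of the 48 genes had no fragment in any HT6h library and 7 none in any HT0h library. Among its calls the list of phloem protein 2 and agglutinin genes was thus mainly higher in heated leaves, and the dividing-cell lists mainly lower. Members of the former were matched by domain, and whether they mark phloem cells in these leaves was not tested. CsaV3_6G006970 and CsaV3_6G006860 were below 1 FPKM in every HT0h library. Of the mesophyll lists the antenna genes had falls only. The RuBisCO gene was not called, and 2 of 32 photosystem subunit genes fell (6.25%, against 10.1%). The part of these lists in the other results was not tested.

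**Figure D4:**
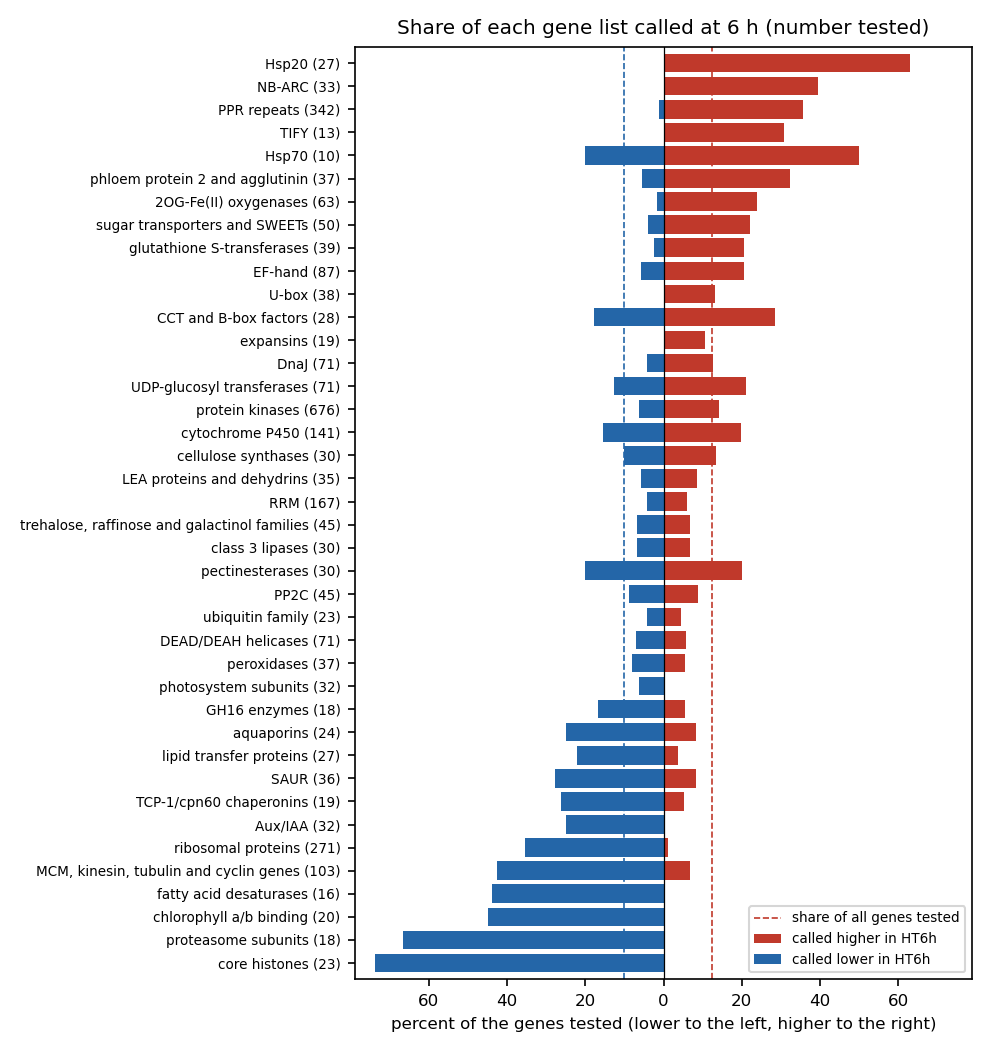
Percent of the genes tested in each list that were called higher in HT6h (red, to the right) or lower (blue, to the left), with the number tested in parentheses and dashed lines at the shares of all genes, 12.3% higher and 10.1% lower. Hsp20 and Hsp70 genes extend furthest to the right, and core histones and proteasome subunits furthest to the left.

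Transcription factor families were taken from the tables' own family column, which also lists Pfam domains of other proteins. AP2/ERF factors, a family with many ethylene and stress response members, had 24 genes higher (24.7%, against 12.3% of all genes) and 1 lower (1.03%, against 10.1%) of 97. CsaV3_2G012870 had 2.86, 2.55 and 4.04 FPKM in HT6h leaves, against 0.372, 0.232 and 0.0955 FPKM in HT0h leaves (log2 fold change 3.35 ± 0.63 (SE), adjusted p = 0.00417). NAC factors had 12 higher (21.8%, against 12.3%) and 2 lower (3.64%, against 10.1%) of 55, and CsaV3_7G001570 had 4.21, 7.12 and 4.63 FPKM in HT6h leaves, against 0.0685, 0.307 and 0.281 FPKM in HT0h leaves (log2 fold change 4.15 ± 0.43 (SE), adjusted p = 0.000283). WRKY factors, known from defence and stress responses, had 15 higher and 1 lower of 50, which is 30% higher against 12.3% of all genes.

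The bZIP factors had 7 genes higher (17.1%, against 12.3% of all genes) and 0 lower of 41. The abundant CsaV3_2G029010 had 79.7, 145 and 42.6 FPKM in HT6h leaves, against 14.6, 25.4 and 13.4 FPKM in HT0h leaves (log2 fold change 2.2 ± 0.41 (SE), adjusted p = 0.00409). Of 72 bHLH factors 10 rose (13.9%, near the 12.3% of all genes) and 1 fell (1.39%, against 10.1%), and 5 or 6 rose on leaving out any HT0h library. CsaV3_3G027730, which overlaps a gene on the other strand, had 21.5, 143 and 19.8 FPKM in HT6h leaves, against 8.59, 10.6 and 7.797 FPKM in HT0h leaves (log2 fold change 2.13 ± 0.66 (SE), adjusted p = 0.0334), with HT6h_2 far above the rest, and its call was lost on leaving out any HT0h library. MYB and MYB-related factors were split, with 17 higher and 15 lower of 140, shares near those of all genes. Without HT6h_1 11 MYB genes rose, and without HT0h_2 or HT0h_3 9 fell. In the 7 libraries 23 rose and 13 fell of 138 tested.

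Smaller families held a few large changes. CsaV3_2G028000, with a B3 DNA-binding domain, had 0.225, 0.545 and 0.575 FPKM in HT6h leaves, against 16.8, 16.6 and 16.4 FPKM in HT0h leaves (log2 fold change -5 ± 0.56 (SE), adjusted p = 0.000372). The B3 family as a whole had 1 gene higher (4%, against 12.3%) and 3 lower (12%, against 10.1%) of 25. CsaV3_6G051590, a MADS-box gene, had 3.69, 5.98 and 3.02 FPKM in HT6h leaves, against 0.102, 0 and 0.313 FPKM in HT0h leaves (log2 fold change 4.36 ± 0.52 (SE), adjusted p = 0.000527). Among GRAS regulators, known from gibberellin and phytochrome signalling, 4 of 30 rose (13.3%, near the share of all genes) and 1 fell, and CsaV3_4G005070 had 22.3, 21.8 and 12.6 FPKM in HT6h leaves, against 4.79, 4.95 and 2.83 FPKM in HT0h leaves (log2 fold change 2.14 ± 0.3 (SE), adjusted p = 0.000999). CsaV3_7G029760, a GATA factor, had 3.82, 3.05 and 4.21 FPKM in HT6h and 0.737, 0.42 and 0 FPKM in HT0h (log2 fold change 3.42). CsaV3_3G026870, of the TCP family of growth regulators, had 4.21, 5.25 and 3.25 FPKM in HT6h and 0.989, 1.14 and 1.27 FPKM in HT0h (log2 fold change 1.8). The homeobox gene CsaV3_1G004310 had 2.79, 0.896 and 1.53 FPKM in HT6h and 10.7, 9.63 and 8.64 FPKM in HT0h (log2 fold change -2.54), a call lost without HT0h_1. CsaV3_1G012440, an SBP-box gene that overlaps one on the other strand, had 1.31, 2.06 and 1.93 FPKM in HT6h and 6.95, 6.07 and 5.4 FPKM in HT0h (log2 fold change -1.76).

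Dof factors had 5 genes higher (15.6%, against 12.3% of all genes) and 3 lower (9.38%, against 10.1%) of 32, and 8 higher when scaled per counted fragment. CsaV3_6G030900 had 0.205, 0 and 1.19 FPKM in HT6h and 2.06, 4.403 and 3.55 FPKM in HT0h (log2 fold change -3.27), and its call was lost in the 7 libraries and on leaving out HT6h_1, HT6h_2 or any HT0h library.

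CCT and B-box factors, many of them tied to day length and light, moved in both directions, with 8 higher (28.6%, against 12.3% of all genes) and 5 lower (17.9%, against 10.1%) of 28. In the test against HT3h 3 of the 28 were lower at 6 h, against 0.2% of all genes, and 3 were lower without HT6h_2 and HT3h_2. Among the B-box genes, chosen here after their values were seen, CsaV3_6G046900 averaged 22.4 FPKM in HT6h and 180.5 FPKM in HT0h (log2 fold change -3.42, adjusted p = 0.00243), while its HT3h mean was 361 FPKM. CsaV3_5G034320 averaged 90.1 FPKM in HT6h and 24.4 FPKM in HT0h (log2 fold change 1.87, adjusted p = 0.000429).

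**Figure D5:**
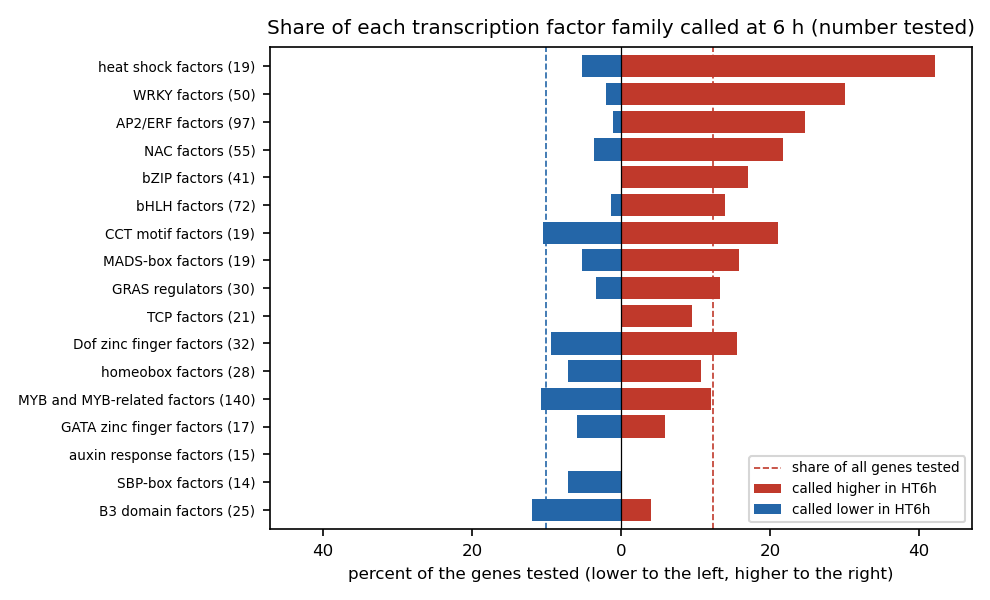
Percent of the genes tested in each transcription factor family that were called higher in HT6h (red, to the right) or lower (blue, to the left), with the number tested in parentheses and dashed lines at the shares of all genes. Heat shock factors have the highest share called higher, 42.1%, followed by WRKY factors with 30%.

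Among auxin genes, Aux/IAA and small auxin-up RNA genes were called lower more often than higher. Of 15 auxin response factors 0 rose and 0 fell. Aux/IAA proteins repress auxin responses and are themselves induced by auxin, and of 32 such genes 8 fell (25%, against 10.1%) and 0 rose. CsaV3_2G004130 had 5.35, 5.34 and 4.05 FPKM in HT6h leaves, against 18.6, 27.2 and 31.4 FPKM in HT0h leaves (log2 fold change -2.34 ± 0.26 (SE), adjusted p = 0.000355). CsaV3_3G026280 was rarer, with 0, 0.305 and 0 FPKM in HT6h leaves, against 1.14, 2.17 and 3.01 FPKM in HT0h leaves (log2 fold change -3.69 ± 0.66 (SE), adjusted p = 0.00315). CsaV3_2G013720 had 7.18, 10.6 and 4.64 FPKM in HT6h and 20.1, 35.4 and 32.4 FPKM in HT0h (log2 fold change -1.99), a call lost on leaving out HT6h_1, HT6h_3, HT0h_2 or HT0h_3. Of 36 small auxin-up RNA genes 10 fell (27.8%, against 10.1%) and 3 rose (8.33%, against 12.3%). Their median was -0.15, and 0.07 when scaled per counted fragment. CsaV3_7G000680 had 0.312, 0.631 and 0.0951 FPKM in HT6h leaves, against 2.91, 5.68 and 3.33 FPKM in HT0h leaves (log2 fold change -3.33 ± 0.65 (SE), adjusted p = 0.00496), and CsaV3_6G047000 rose, with 10.3, 16.03 and 29.2 FPKM in HT6h leaves, against 4.14, 2.97 and 1.699 FPKM in HT0h leaves (log2 fold change 2.57 ± 0.43 (SE), adjusted p = 0.00231).

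Of 13 TIFY genes, which include the JAZ repressors of jasmonate signalling, 4 rose (30.8%, against 12.3% of all genes) and 0 fell. CsaV3_1G041270 had 29.6, 19.3 and 46.5 FPKM in HT6h leaves, against 9.07, 7.69 and 9.27 FPKM in HT0h leaves (log2 fold change 1.77 ± 0.29 (SE), adjusted p = 0.00228), and CsaV3_3G046630 had 15.01, 27.3 and 15.7 FPKM in HT6h leaves, against 7.14, 4.999 and 3.52 FPKM in HT0h leaves (log2 fold change 1.87 ± 0.3 (SE), adjusted p = 0.00196). CsaV3_6G051810 had 2.71, 1.02 and 10.1 FPKM in HT6h and 0.507, 0.379 and 0.52 FPKM in HT0h (log2 fold change 2.49), a call lost on leaving out HT6h_1, HT6h_3 or any HT0h library. Protein phosphatases 2C, some of which act in abscisic acid signalling, gave 4 higher (8.89%, against 12.3%) and 4 lower (8.89%, against 10.1%) of 45, and 7 higher and 2 lower when scaled per counted fragment. CsaV3_3G043720 had 32.4, 39.8 and 99.6 FPKM in HT6h and 14.97, 13.1 and 14.2 FPKM in HT0h (log2 fold change 1.83) and CsaV3_6G022710 had 0.535, 0.354 and 1.67 FPKM in HT6h and 5.48, 5.26 and 3.85 FPKM in HT0h (log2 fold change -2.62). Leaving out HT0h_1 or HT0h_2 left 2 phosphatase genes called higher, and leaving out HT6h_1 left 2 called lower.

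EF-hand genes were called higher more often than lower, and protein kinase genes rose at near the share of all genes. Of 87 EF-hand genes 18 rose (20.7%, against 12.3%) and 5 fell, and in the 7 libraries 23 rose and 3 fell, as 3 did without HT6h_2. CsaV3_6G034010 had 26.7, 60.5 and 27.04 FPKM in HT6h leaves, against 0.314, 0.125 and 0.0645 FPKM in HT0h leaves (log2 fold change 7.15 ± 0.44 (SE), adjusted p = 2.19e-05). CsaV3_3G044850 had no fragment in any HT0h library, and its 5.49, 8.70 and 4.94 FPKM in HT6h leaves correspond to an at least 69.4-fold higher level against a floor of 3 fragments over the 3 HT0h libraries. CsaV3_1G041870 fell, with 184, 206 and 175 FPKM in HT6h leaves, against 512, 429 and 441 FPKM in HT0h leaves (log2 fold change -1.29 ± 0.17 (SE), adjusted p = 0.000876). Protein kinases, the largest list, had 95 genes higher (14.1%, near the 12.3% of all genes) and 42 lower (6.21%, against 10.1%) of 676. Without HT0h_2 or HT0h_3 27 kinase genes were lower. CsaV3_6G038320 fell, with 0.434, 1.47 and 0.793 FPKM in HT6h leaves, against 14.1, 13.98 and 18.4 FPKM in HT0h leaves (log2 fold change -4.09 ± 0.5 (SE), adjusted p = 0.000562).

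NB-ARC genes, immune receptors that sense pathogens, had 13 members higher (39.4%, against 12.3%) and 0 lower of 33, with a median of 0.83, and 9 were higher in the 7 libraries and 8 without HT6h_2 or HT0h_3. CsaV3_2G004870, with a TIR domain, had 5.29, 6.42 and 6.63 FPKM in HT6h leaves, against 0.522, 0.846 and 1.17 FPKM in HT0h leaves (log2 fold change 2.77 ± 0.36 (SE), adjusted p = 0.000728). CsaV3_3G039540, with leucine-rich repeats, had 5.197, 6.198 and 6.1 FPKM in HT6h leaves, against 1.44, 1.39 and 1.28 FPKM in HT0h leaves (log2 fold change 2.01 ± 0.19 (SE), adjusted p = 0.000186). CsaV3_2G036220 had 4.16, 4.99 and 2.92 FPKM in HT6h and 0.613, 0.864 and 0.69 FPKM in HT0h (log2 fold change 2.3). These genes were low in both groups, under 7 FPKM in every HT6h and HT0h library.

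Enzyme families of specialised metabolism moved in both directions. Cytochromes P450, oxygenases of hormone and defence compound synthesis, gave 28 higher (19.9%, against 12.3% of all genes) and 22 lower (15.6%, against 10.1%) of 141. CsaV3_3G030690 had 28.99, 75.3 and 34.4 FPKM in HT6h leaves, against 0.399, 0.515 and 0.433 FPKM in HT0h leaves (log2 fold change 6.27 ± 0.41 (SE), adjusted p = 3.09e-05). CsaV3_1G002840 fell, with 0.629, 0.836 and 2.28 FPKM in HT6h leaves, against 15.5, 12.1 and 9.62 FPKM in HT0h leaves (log2 fold change -3.38 ± 0.82 (SE), adjusted p = 0.0128). Without HT6h_1 or HT0h_3, 18 P450 genes were higher, and without HT0h_3 13 were lower. UDP-glucosyl transferases, which attach sugar to small molecules, gave 15 higher (21.1%, against 12.3%) and 9 lower (12.7%, against 10.1%) of 71. CsaV3_6G001040 had 2.58, 13.9 and 3.803 FPKM in HT6h leaves, against 0.0229, 0.0915 and 0.0706 FPKM in HT0h leaves (log2 fold change 5.05 ± 0.72 (SE), adjusted p = 0.00116), and CsaV3_3G047570 fell, with 0.106, 0.438 and 0.899 FPKM in HT6h and 4.89, 3.87 and 4.19 FPKM in HT0h (log2 fold change -3.19).

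The 2OG-Fe(II) oxygenases, a superfamily that includes enzymes of gibberellin, ethylene and flavonoid metabolism, had 15 genes higher (23.8%, against 12.3%) and 1 lower of 63. CsaV3_4G008570 had 112, 315 and 138 FPKM in HT6h leaves, against 9.8, 2.77 and 8.51 FPKM in HT0h leaves (log2 fold change 4.76 ± 0.53 (SE), adjusted p = 0.00036), and CsaV3_4G009640 had 8.61, 11.1 and 6.26 FPKM in HT6h leaves, against 0.553, 0.404 and 0.34 FPKM in HT0h leaves (log2 fold change 4.02 ± 0.31 (SE), adjusted p = 6.75e-05). CsaV3_6G041260, which overlaps a gene on the other strand, had 7.31, 22.8 and 5.46 FPKM in HT6h and 0.681, 0.324 and 0.599 FPKM in HT0h (log2 fold change 4). CsaV3_6G009030 was the member that fell, with 4.92, 21.9 and 9.63 FPKM in HT6h and 40.6, 65.7 and 79.9 FPKM in HT0h (log2 fold change -2.55), a call lost without HT0h_3.

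Glutathione S-transferases, which detoxify reactive compounds, had 8 genes higher (20.5%, against 12.3% of all genes) and 1 lower (2.56%, against 10.1%) of 39. CsaV3_3G011460 had 18.02, 105 and 12.5 FPKM in HT6h leaves, against 5.24, 3.41 and 2.62 FPKM in HT0h leaves (log2 fold change 2.96 ± 0.84 (SE), adjusted p = 0.0244), with HT6h_2 far above the other heated libraries, and its call was lost without HT6h_2, HT0h_2 or HT0h_3. CsaV3_3G009990 had 31.99, 63.3 and 22.6 FPKM in HT6h leaves, against 5.96, 5.99 and 6.695 FPKM in HT0h leaves (log2 fold change 2.51 ± 0.52 (SE), adjusted p = 0.00614). CsaV3_1G005440 had 3.54, 10.99 and 4.99 FPKM in HT6h and 1.37, 0.607 and 0.625 FPKM in HT0h (log2 fold change 2.7), a call lost without HT6h_2, HT6h_3, HT0h_2 or HT0h_3. CsaV3_7G029040 fell, with 9.36, 14.8 and 6.57 FPKM in HT6h and 18.4, 20.2 and 24.7 FPKM in HT0h (log2 fold change -1.1), a call lost without HT6h_1, HT6h_3 or any HT0h library. Without HT6h_2 or HT0h_3 5 transferase genes rose and without HT0h_2 4 did. Of 37 peroxidase genes 2 rose (5.41%, against 12.3%) and 3 fell (8.11%, against 10.1%). CsaV3_7G006370 had 4.81, 6.69 and 1.18 FPKM in HT6h and 0.448, 0.446 and 0.292 FPKM in HT0h (log2 fold change 2.83). CsaV3_4G005430 had 0, 0 and 0.768 FPKM in HT6h and 3.58, 2.13 and 1.13 FPKM in HT0h (log2 fold change -3.4), a call lost in the 7 libraries and on leaving out HT6h_1, HT6h_2 or any HT0h library.

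The cell wall lists held some large single changes. Of 30 pectinesterase genes, whose enzymes modify wall pectin, 6 rose (20%, against 12.3% of all genes) and 6 fell (20%, against 10.1%), and 3 fell without HT6h_2 or HT0h_2. CsaV3_5G004220 had 2.37, 3.49 and 1.87 FPKM in HT6h leaves, against 40.6, 55.8 and 78.4 FPKM in HT0h leaves (log2 fold change -4.44 ± 0.51 (SE), adjusted p = 0.000426). CsaV3_7G026200 rose, with 98.8, 41.5 and 52.3 FPKM in HT6h leaves, against 8.83, 4.704 and 3.03 FPKM in HT0h leaves (log2 fold change 3.55 ± 0.79 (SE), adjusted p = 0.00836). Of 30 cellulose synthase family genes 4 rose (13.3%) and 3 fell (10%), shares near those of all genes. CsaV3_2G009180 had 7.799, 6.54 and 7.92 FPKM in HT6h leaves, against 0.32, 0.434 and 0.525 FPKM in HT0h leaves (log2 fold change 3.85 ± 0.31 (SE), adjusted p = 9.09e-05), and CsaV3_4G001030 had 1.71, 2.04 and 1.94 FPKM in HT6h leaves, against 27.3, 25.6 and 30.6 FPKM in HT0h leaves (log2 fold change -3.81 ± 0.71 (SE), adjusted p = 0.0039). Of 19 expansins, proteins that loosen walls, 2 rose (10.5%, near the share of all genes) and 0 fell, and CsaV3_5G008160 had 6.09, 8.64 and 10.3 FPKM in HT6h and 2.29, 2.44 and 1.78 FPKM in HT0h (log2 fold change 1.87). Of 18 GH16 genes, which include xyloglucan-modifying enzymes, 1 rose (5.56%, against 12.3%) and 3 fell (16.7%, against 10.1%), and CsaV3_6G035560 had 1.47, 1.503 and 1.96 FPKM in HT6h and 7.18, 7.47 and 10.9 FPKM in HT0h (log2 fold change -2.29).

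Genes of membrane lipid synthesis and lipid transfer were among those lower at 6 h. Of 16 fatty acid desaturase genes, which set the unsaturation of membrane lipids, 7 fell (43.8%, against 10.1%) and 0 rose, with a median of -1.12, but 3 fell without HT0h_3 and 4 when scaled per counted fragment. CsaV3_4G001680 had 8.12, 3.97 and 25.3 FPKM in HT6h leaves, against 265, 199 and 206 FPKM in HT0h leaves (log2 fold change -4.55 ± 1.01 (SE), adjusted p = 0.00838). CsaV3_2G025420 had 63.6, 57.96 and 63.4 FPKM in HT6h leaves, against 154, 157 and 168 FPKM in HT0h leaves (log2 fold change -1.37 ± 0.14 (SE), adjusted p = 0.000293), with little spread in either group. CsaV3_1G026760 had 4.62, 2.99 and 2.301 FPKM in HT6h and 5.71, 7.39 and 9.56 FPKM in HT0h (log2 fold change -1.2), a call lost in the 7 libraries and without HT6h_2, HT6h_3 or any HT0h library. Of 27 lipid transfer protein genes 6 fell (22.2%, against 10.1%) and 1 rose (3.7%, against 12.3%). CsaV3_7G026880 had 15.4, 11.04 and 22.9 FPKM in HT6h leaves, against 310.3, 404 and 289 FPKM in HT0h leaves (log2 fold change -4.38 ± 0.34 (SE), adjusted p = 6.91e-05), and CsaV3_7G031300 had 0, 0.137 and 0.869 FPKM in HT6h and 2.73, 3.23 and 2.62 FPKM in HT0h (log2 fold change -3.37). CsaV3_3G002240 rose, with 6.56, 8.56 and 4.88 FPKM in HT6h leaves, against 1.13, 0.353 and 0.472 FPKM in HT0h leaves (log2 fold change 3.27 ± 0.57 (SE), adjusted p = 0.00296). Of 30 class 3 lipase genes 2 rose and 2 fell (6.67% each, against 12.3% and 10.1% of all genes). Both named members, CsaV3_1G036900 (log2 fold change 2.8) and CsaV3_6G043310 (log2 fold change -1.08), lost the call in 11 of the 18 alternatives, leaving out HT6h_2 or any HT0h library among them, and HT6h_1 for CsaV3_1G036900 and HT6h_3 for CsaV3_6G043310.

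Aquaporins, channels for water, had 6 genes lower (25%, against 10.1%) and 2 higher of 24, with a median of -1.01. CsaV3_5G008960 had 9.77, 0.994 and 3.98 FPKM in HT6h leaves, against 40.04, 41.6 and 30.7 FPKM in HT0h leaves (log2 fold change -3.4 ± 0.65 (SE), adjusted p = 0.00434), and CsaV3_5G004290 had 13.2, 2.87 and 10.8 FPKM in HT6h leaves, against 60.7, 57.6 and 66.99 FPKM in HT0h leaves (log2 fold change -3.03 ± 0.55 (SE), adjusted p = 0.00357). HT6h_2 was the lowest heated library in both. CsaV3_6G039540 had 12.9, 6.68 and 21.4 FPKM in HT6h and 42.3, 39.1 and 63.7 FPKM in HT0h (log2 fold change -1.94). CsaV3_4G013360 rose, with 49.7, 51.4 and 39.2 FPKM in HT6h leaves, against 16.5, 15.1 and 16.7 FPKM in HT0h leaves (log2 fold change 1.52 ± 0.18 (SE), adjusted p = 0.000486). Sugar transporters and SWEETs had 11 genes higher (22%, against 12.3%) and 2 lower (4%, against 10.1%) of 50, and 7 higher without HT0h_1 or HT0h_2. CsaV3_6G049720 had 1.695, 11.5 and 1.67 FPKM in HT6h leaves, against 0.146, 0.145 and 0 FPKM in HT0h leaves (log2 fold change 4.19 ± 0.89 (SE), adjusted p = 0.00694). CsaV3_2G010410, which overlaps a gene on the other strand, had 0.918, 6.05 and 2.36 FPKM in HT6h and 0.149, 0.0186 and 0.0573 FPKM in HT0h (log2 fold change 3.9). HT6h_2 was the highest library in both. CsaV3_6G031030, a SWEET, fell, with 54.7, 40.03 and 48 FPKM in HT6h and 113, 110 and 104 FPKM in HT0h (log2 fold change -1.21), a call lost without HT0h_1. CsaV3_2G002050 had 2.62, 2.01 and 1.55 FPKM in HT6h and 0.281, 0.806 and 0.0721 FPKM in HT0h (log2 fold change 2.44), a call lost without HT6h_1, HT0h_1 or HT0h_3.

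Of 35 late embryogenesis abundant (LEA) and dehydrin genes, which protect cells on drying, 3 rose (8.57%, against 12.3% of all genes) and 2 fell (5.71%, against 10.1%), and 7 rose in the 7 libraries. The abundant CsaV3_7G029330 had 1039, 693 and 609.8 FPKM in HT6h leaves, against 67.5, 45.2 and 30.8 FPKM in HT0h leaves (log2 fold change 4.06 ± 0.54 (SE), adjusted p = 0.000864), and the summed level of the list was 1410, 1128 and 944 FPKM in HT6h leaves, against 417, 369 and 363 FPKM in HT0h leaves. CsaV3_6G041040 fell, with 1.89, 0.789 and 0.634 FPKM in HT6h leaves, against 6.48, 5.92 and 9.65 FPKM in HT0h leaves (log2 fold change -2.74 ± 0.4 (SE), adjusted p = 0.00125). Of 45 genes matched by domains of trehalose, raffinose and galactinol synthesis families, 3 rose (6.67%, against 12.3%) and 3 fell (6.67%, against 10.1%). Scaled per counted fragment 3 rose and 0 fell. Many of the 45 carry the glycosyl transferase family 8 domain (28 tested genes), which does not by itself show what an enzyme makes. The counts are thus not those of protective-sugar genes alone. CsaV3_6G000050, of glycosyl transferase family 8, had 264, 1040 and 136 FPKM in HT6h leaves, against 16.5, 4.49 and 12.6 FPKM in HT0h leaves (log2 fold change 5.08 ± 1.7 (SE), adjusted p = 0.0447), a call lost on leaving out any of the 6 libraries. CsaV3_6G045560, a trehalose-phosphatase, had 1.49, 0.678 and 3.002 FPKM in HT6h and 7.104, 10.9 and 3.49 FPKM in HT0h (log2 fold change -2.07), a call lost without HT6h_1, HT6h_2, HT0h_1 or HT0h_2.

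Over all 386 Pfam entries with at least 10 genes tested, the entry with the highest share called higher was the domain found at the C-terminal side of an AAA ATPase domain, with 10 of 15 genes. The families of this paragraph were picked for their share of calls, so the counts are descriptions. For this entry the share was 66.7%, where 12.3% of all genes tested were higher and 10.1% lower. The 10 genes had log2 fold changes from 2.23 (CsaV3_6G046610) to 6.92 (CsaV3_1G008040). CsaV3_1G008040 averaged 18.9 FPKM in HT6h and 0.0537 FPKM in HT0h, and its neighbours in identifier CsaV3_1G008030 (7.34 FPKM in HT6h and 0.869 FPKM in HT0h) and CsaV3_1G008050 (9.13 FPKM in HT6h and 0.531 FPKM in HT0h) were also called higher. CsaV3_6G046640 averaged 27.9 FPKM in HT6h and 0.763 FPKM in HT0h and CsaV3_6G046610 38.2 FPKM in HT6h and 7.93 FPKM in HT0h. Close copies of this kind may share fragments. Calmodulin binding protein-like genes, a family with regulators of salicylic acid synthesis in Arabidopsis, were called higher in 6 of 11 (54.5%, against 12.3%). CsaV3_1G005840 averaged 42.9 FPKM in HT6h and 5.799 FPKM in HT0h (log2 fold change 2.74, adjusted p = 0.00146), and CsaV3_2G006890 averaged 35.1 FPKM in HT6h and 10.4 FPKM in HT0h (log2 fold change 1.67, adjusted p = 0.00944). Sulfate permease genes rose in 4 of 10 (40%, against 12.3%). On the lower side, O-methyltransferase genes fell in 6 of 13 (46.2%, against 10.1%). Genes with a calponin homology domain fell in 5 of 10 (50%, against 10.1%).

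The separation of the libraries was wider than the calls. In 5284 genes (27.1%) every HT6h library lay above every HT0h library, and in 5264 (27%) every one lay below, the fold threshold left aside. Among Hsp20 genes 18 of 27 lay above and 1 below, among ribosomal protein genes 8 of 271 above and 189 below, and among PPR genes 207 of 342 above and 28 below. Proteasome subunits had 0 above and 16 below of 18, and photosystem subunits 2 above and 19 below of 32.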

How the data were processed

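RNA-seq of total RNA from leaves gave 9 libraries, 3 per time. The authors deposited FPKM values per gene, 1 table per library, and a submitters' list names CASAVA 1.8, HISAT2 2.0.5, StringTie 1.3.3b and featureCounts 1.5.0-p3 without their roles. For the strand setting and the treatment of shared fragments the sources used here give nothing. FPKM times gene length gave whole fragments for 100% of values (within 0.02), so fragments per gene were recovered. Multiplied out, the FPKM scale rests on size factors and not on each library's total.

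All 9 libraries entered 1 model (3 times, no covariates) in limma 3.58.1 under R 4.3.3, on log2(FPKM + 0.1), with 6 residual degrees of freedom and variances moderated along a mean-variance trend. Fold changes are on this scale, which understates low genes. Benjamini-Hochberg adjustment ran over all 19468 genes tested. Named genes had to be called, with a mean of 1 FPKM or more and no overlap between HT6h and HT0h. They are the 8 largest rises and falls, the 5 most abundant of each, and the leading genes of each list and transcription factor family; 3 of the 140 without a CsaV3 identifier are left unnamed. Members and lists were chosen with earlier results of these data known. Lists were matched by Pfam names. Replicate numbers were used as names of libraries only. Whether HT3h and HT6h libraries of the same number belong together was not tested. Pearson's r of log2(FPKM + 1) was 0.977 between HT3h_3 and HT6h_3, against 0.976 and 0.956 between HT3h_3 and HT3h_1 or HT3h_2. For HT3h_2 it was 0.970 with HT6h_2 and 0.974 with HT6h_1. No sequence was matched: the RefSeq table of 23999 genes matched 0 identifiers.

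The alternatives were the 7 libraries without HT6h_2 and HT3h_2, leaving out each HT6h and HT0h library, only the HT6h and HT0h libraries, a replicate block, no filter, a minimum mean of 1 FPKM, pseudocounts of 0.01 and 1, scaling per counted fragment, quantile normalization, no trend, array weights, and limma's voom on the recovered fragments.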

Additional observations from a re-analysis of the deposited data

Results flagged for a closer look

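In 4 of the 140 named genes the level at 6 h also differed from the level at 3 h by limma's test over all genes. Of all 19468 genes tested, 34 were higher at 6 h than at 3 h (0.175%) and 39 lower (0.2%). CsaV3_4G009980, the CCT and B-box gene with the largest fall, was lower at 6 h than at 3 h (log2 fold change -5.14, adjusted p = 0.0121), with 0, 0.0846 and 0.178 FPKM in HT6h and 8.55, 8.595 and 2.92 FPKM in HT3h. CsaV3_6G008360, with a Myb-like domain, was lower too (log2 fold change -2.92, adjusted p = 0.0202), with 0.67, 1.65 and 1.06 FPKM in HT6h and 8.49, 13.3 and 5.72 FPKM in HT3h. CsaV3_6G001040, a UDP-glucosyl transferase, was higher at 6 h (log2 fold change 4.45, adjusted p = 0.0435), with 2.58, 13.9 and 3.8 FPKM in HT6h and 0, 0.289 and 0.263 FPKM in HT3h. The kinase gene CsaV3_7G002270 was higher at 6 h as well (log2 fold change 4.52, adjusted p = 0.0174), with 12.2, 58.9 and 22.6 FPKM in HT6h and 1.08, 1.06 and 0.905 FPKM in HT3h. All 4 stood further from HT0h at 6 h than at 3 h, an order favoured by naming genes for their change from HT0h to HT6h. Without HT6h_2 and HT3h_2 the adjusted p was 0.0498 for CsaV3_4G009980, 0.0196 for CsaV3_6G008360 and 0.0371 for CsaV3_7G002270, while for CsaV3_6G001040 it was 0.0803, past the threshold no longer.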

How the results depend on the processing

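The 18 alternatives gave 3374 to 5317 called genes, against 4361, and none reversed a named gene. Leaving out libraries or changing the pseudocount could not reverse one, because named genes had no overlap between HT6h and HT0h. The count was lowest without HT0h_3 (3374) and highest with array weights (5317). Leaving out single libraries gave 3374 to 4409, and 3405 of the 3847 calls without HT6h_2 were among the 4361 in the same direction. With a pseudocount of 1 the count was 3530, with voom on fragments 4283 and with quantile normalization 4247. Of the 140 named genes 106 kept their call under every alternative. HT6h and HT0h libraries with the same replicate number did not deviate together (r of -0.022 for number 1, 0.014 for number 2 and -0.106 for number 3), and the fit with a replicate block called 4585 genes. Depth limits genes of few fragments, whose fold changes depend on the pseudocount. The comparison of 6 h with 3 h without HT6h_2 and HT3h_2 was chosen after seeing the data. With a pseudocount of 1, 7 NB-ARC, 18 cytochrome P450, 6 sugar transporter and 10 MYB genes were higher. Array weights gave 14 chlorophyll a/b binding and 14 Aux/IAA genes lower.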

Other observations

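The share of genes called lower differed by gene length over 4 length classes of equal size, with 12.5% in class Q2, 6.72% in the class of the longest genes and 10.4% in that of the shortest. The share called higher was 14.1% in the class of the shortest genes and 11.9% in that of the longest. By chromosome the shares lay between 11.5% and 13.4% higher and between 9.68% and 10.9% lower, and on scaffolds outside the 7 chromosomes they were 8.22% and 11.7%. Genes with no Pfam entry were called higher in 13.4% and lower in 9.92% of 6280 tested.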
